A study of Mus musculus with 4 samples.

Results

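Loricrin (Lor, ENSMUSG00000043165.6) encodes the major protein of the cornified envelope, the cross-linked shell that replaces the plasma membrane of epidermal keratinocytes as they become the outer skin barrier. The mouse gene lies on chromosome 3 within the epidermal differentiation complex (EDC), a cluster of genes for envelope and barrier proteins. The contacts described here are those of a 60 kb region around Lor, chr3:91850000-91910000 (mm9), and a contact belongs to the region when the midpoint of at least 1 of its fragments lies inside it. The region holds 12 of the 712 HindIII fragments listed in the deposited tables, and 868 of the 23395 contacts that all 4 libraries list have a fragment there.

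The contacts were measured by 5C, in which probes matching the ends of restriction fragments are ligated to each other where those fragments had been joined by ligation in fixed nuclei, so that probe pairs count how often the fragments met. The libraries were 2 of primary epidermal keratinocytes from newborn C57BL/6 mice, kept in low-calcium medium on collagen for 15 hours at 32 °C, and 2 of primary thymocytes crushed from C57BL/6 thymi. All were fixed with 1% formaldehyde for 10 minutes. Keratinocytes are the epithelial cells in which EDC genes are used, and thymocytes, the developing T cells, served as a lineage that does not form a cornified envelope. Thymus suspensions hold T cells of all stages, freshly plated keratinocytes are not a sorted population, and how many animals each library pooled is not given in the sources used here. DNA contacts hold no marker that checks the cell type.

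A topologically associating domain (TAD) is a stretch of chromatin whose fragments meet each other more often than they meet fragments beyond its ends. Genes at a border between TADs can therefore differ in how often they meet either side. The keratinocyte border that the study placed between TAD2, the gene-poor part upstream, and TAD3, which holds Ivl, the Sprr family and most Lce genes, falls inside the region. The study's average thymocyte border between these TADs lies 187.5 kb further on, at 92.0825 Mb, so by that border the whole region lies in TAD2 in thymocytes. The accuracy that the study states for a border position is coarser than the width of the region. Upstream is used here for lower coordinates of chromosome 3 and downstream for higher ones. Lor itself is read on the minus strand, so its promoter faces the downstream side.

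Lor spans chr3:91884197-91887064, with 2 exons at chr3:91887016-91887064 and chr3:91884197-91885922 and its coding sequence, at chr3:91884442-91885899, wholly in the longer exon. The whole gene lies within the forward fragment FOR_683, chr3:91876919-91893349, which is the longest of the 12 at 16431 bp, and no other fragment of the region overlaps a gene of the list used. The probe of FOR_683 reads the downstream end of that fragment, with its first base 6.26 kb from the Lor start, so a contact of FOR_683 is a contact of a fragment that holds the promoter and the whole gene and not of the promoter alone. The parts of 4 probes that anneal to the genome are given. FOR_683 holds Lor. REV_685 and REV_679 had the highest number of contacts called in keratinocytes, 12 of 150 and 10 of 195 (8.00% and 5.13%, against 1.99% over the whole locus). FOR_671 and REV_679 had the highest number in thymocytes, 8 of 103 and 8 of 148 (7.77% and 5.41%, against 4.03%). Fragments with fewer listed contacts had higher shares, REV_674 in keratinocytes (4 of 33) and REV_672 (4 of 29) and REV_688 (1 of 3) in thymocytes. Capitals mark the part of the HindIII site that each probe keeps, where ligation joins a forward probe to a reverse one.
FOR_683, plus strand, chr3:91893320-91893349: tgatttgggggagctacagtctactatAAG
REV_685, minus strand, chr3:91900310-91900339: CTTtagtcatccccaagtcttttctagtag
REV_679, minus strand, chr3:91868513-91868542: CTTgactaaatggaggaggtccttattaga
FOR_671, plus strand, chr3:91853694-91853723: cttcctacttgcaagggtcagctgttgAAG

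The 250 bases before the Lor start lie in the same fragment, at chr3:91887065-91887314 on the minus strand, and are given because the contacts of FOR_683 carry this promoter with them. Capitals mark a match to TGAGTCA, the core letters bound by AP-1, a factor of keratinocyte differentiation, and a match to TATAAA, the TATA box.
Lor promoter: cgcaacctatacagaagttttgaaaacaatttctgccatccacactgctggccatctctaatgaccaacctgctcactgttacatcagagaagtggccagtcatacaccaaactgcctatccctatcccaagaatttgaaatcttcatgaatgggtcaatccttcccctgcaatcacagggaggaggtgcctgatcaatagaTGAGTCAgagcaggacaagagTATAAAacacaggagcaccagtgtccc
The TGAGTCA match begins 48 bases before the start and the TATAAA match 27 bases before it. On either strand, 4.46% of 32851 mouse promoter windows of the same length in RefSeq (GRCm38.p6) hold TGAGTCA and 12.4% hold TATAAA. A match of letters is a description and does not show that a factor is bound.

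The number of contacts listed for the region was 3090 and 2429 in keratinocytes and 1632 and 2012 in thymocytes. On the upstream side 68.5%, 58.0%, 33.8% and 45.7% of the possible fragment pairs were listed in keratinocyte libraries 1 and 2 and thymocyte libraries 1 and 2, and on the downstream side 79.4%, 60.2%, 42.2% and 51.9%. The tables hold corrected frequencies and no read counts, so the depth behind a value is unknown. Pairs missing from a library's table carry no value there, so the results that follow use the 188 upstream, 670 downstream and 10 internal contacts listed in all 4 libraries unless another set is named. Of the 12 fragments, REV_688 has none of these contacts and REV_674 has 1. Over those contacts the 2 keratinocyte libraries correlated with r = 0.362 upstream and 0.232 downstream, and the 2 thymocyte libraries with 0.204 and 0.279. Keratinocyte library 2 correlated with thymocyte library 2 at 0.464 upstream, and with thymocyte libraries 1 and 2 at 0.354 and 0.237 downstream, each above its value with the other keratinocyte library. These correlations run across contacts that share fragments and are given as a description.

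Each contact is given as a Z score, the corrected frequency minus the frequency expected at that distance, divided by the standard deviation at that distance. By mean Z score, contacts of the Lor region were higher downstream than upstream in both keratinocyte libraries, and in neither thymocyte library. Upstream, the mean Z score was -0.299 in keratinocyte library 1, 0.143 in keratinocyte library 2, 0.654 in thymocyte library 1 and 0.792 in thymocyte library 2, the order kept below. Both keratinocyte values lay below both thymocyte values, and the difference between the group means was -0.80. Downstream, the mean Z score was 1.04 and 0.801 in keratinocytes and 0.497 and 0.679 in thymocytes. Here both keratinocyte values lay above both thymocyte values, by 0.33 between the means. The downstream mean minus the upstream mean was 0.999 ± 0.481 (SD, n = 2) in keratinocytes. In thymocytes it was -0.135 ± 0.0312 (SD, n = 2), a difference of 1.13 between the cell types. The two-sided exact permutation test gave p = 0.333 for each of these values, which is the smallest p that 2 libraries against 2 allow, and 0.333 after Benjamini-Hochberg adjustment over 4 comparisons. This exact test can therefore not pass a threshold of 0.05, and the size of each difference is given beside the spread of the libraries. By the median over contacts in place of the mean, the upstream difference was -0.34 and the side difference 0.64, and with the distance bands weighted equally the side difference was 0.44. With 2 libraries against 2, p = 0.333 in this exact test says that the libraries of the cell types did not overlap, not how widely they spread. It speaks of these libraries only.

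**Figure D1:**
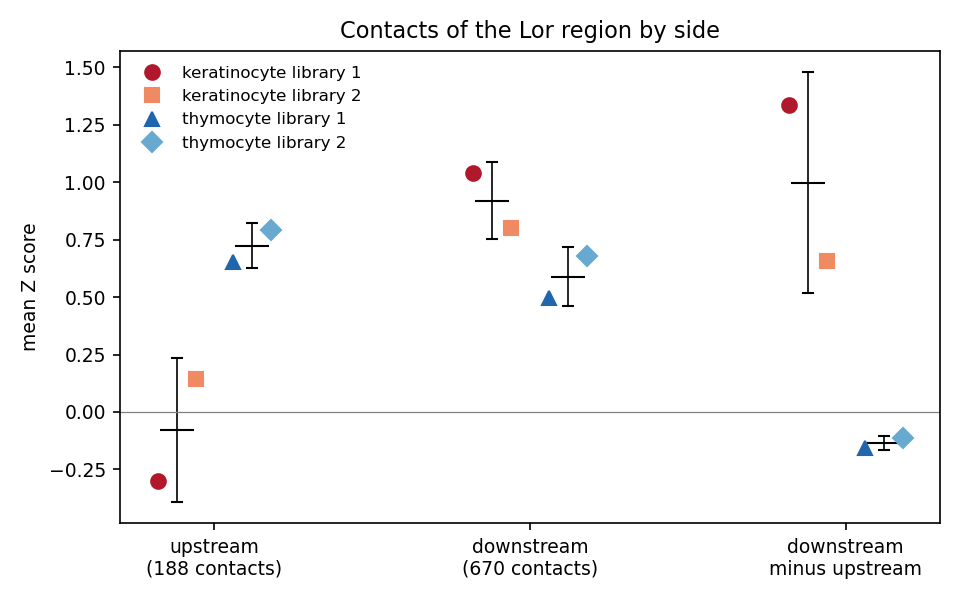
Mean Z score of the Lor region's contacts listed in all 4 libraries, upstream, downstream and as downstream minus upstream. Each symbol is a library, and the bars give the mean and SD of 2 libraries. Upstream the keratinocyte libraries lie at -0.299 and 0.143, below both thymocyte libraries, and downstream they lie above them.

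The means of the whole libraries moved much less than the upstream contacts. Over all 23395 contacts the mean Z score was 0.515 and 0.577 in keratinocytes and 0.613 and 0.701 in thymocytes. With that mean taken off in each library, the upstream difference was -0.69 and the downstream difference 0.44. The downstream difference depended on which contacts were used: over every contact that a library lists it was 0.05, with overlapping libraries, while the upstream difference was -0.88 and the side difference 0.94.

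The difference between the cell types was not spread evenly over distance, and close to Lor it ran the other way. Downstream at 500 to 1000 kb, a distance band that covers most of the Lce genes, the mean Z score of 186 contacts was 2.18 and 1.19 in keratinocytes and 0.526 and 0.537 in thymocytes. At 1000 to 2000 kb, where the filaggrin-like genes lie, 244 contacts had means of 1.20 and 0.963 in keratinocytes and 0.682 and 0.873 in thymocytes. In both bands the keratinocyte libraries were above the thymocyte libraries, with the wider gap in the nearer band. At 250 to 500 kb downstream the order was opposite, with -0.112 and 0.0939 in keratinocytes against 0.296 and 0.291 in thymocytes over 82 contacts. At 50 to 250 kb the 25 contacts had means of -0.980 and -0.349 in keratinocytes and -0.0835 and 0.388 in thymocytes. Below 500 kb the downstream difference was -0.42 and the side difference -0.19, both opposite in sign to the values over all distances.

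Upstream, most of the difference came from contacts of more than 1000 kb. The 94 contacts at 1000 to 2000 kb had means of -0.253 and 0.404 in keratinocytes and 1.29 and 1.67 in thymocytes. The mean log2 of observed over expected frequency in this band was -1.02 and -0.0986 in keratinocytes and 0.173 and 0.302 in thymocytes. Median corrected frequencies there overlapped between the cell types, at 60.8 and 43.6 against 49.7 and 40.2. Of the upstream contacts, 80 of the 188 have their partner in TAD1, which holds the 5' S100 genes. At 500 to 1000 kb upstream the means were -0.0771 and -0.0679 against 0.140 and -0.0132, and at 50 to 250 kb and 250 to 500 kb the libraries of the cell types overlapped. Within 50 kb both keratinocyte libraries, at -0.702 and -0.339, were below both thymocyte libraries, at -0.176 and 0.0526. The upstream difference under 500 kb was -0.24.

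**Figure D2:**
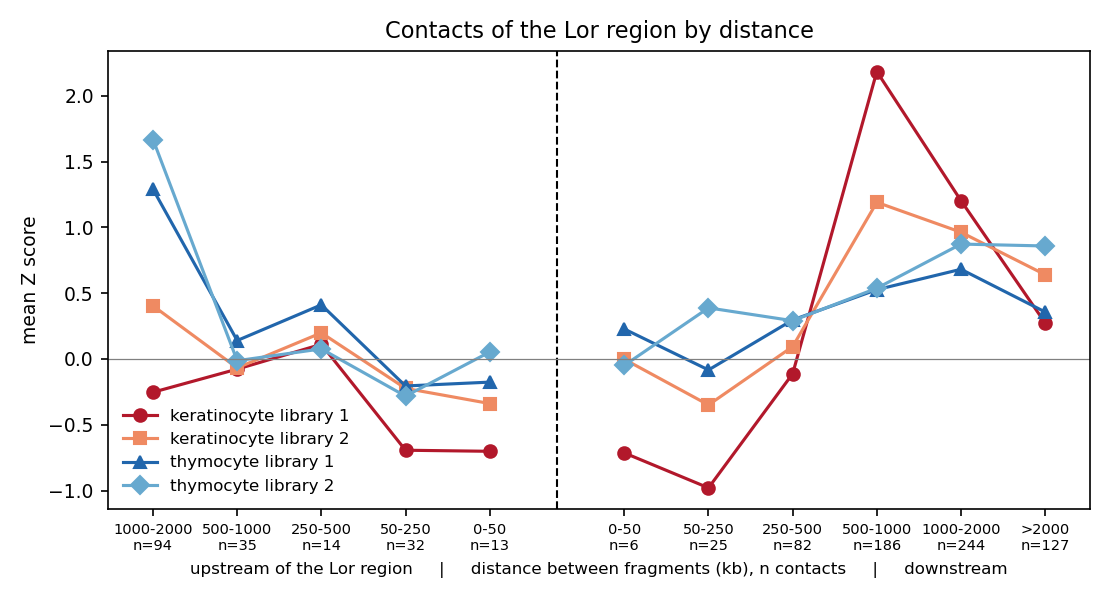
Mean Z score of the Lor region's contacts by the distance between the fragments in kb, with the upstream side on the left and the downstream side on the right of the dashed line. Each line is a library, and n is the number of contacts in the band. The keratinocyte libraries are highest at 500-1000 kb downstream (2.18 and 1.19), and the thymocyte libraries at 1000-2000 kb upstream (1.29 and 1.67).

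On scales that do not divide by the standard deviation, the frequencies behind the Z scores kept these results only in part. On the log2 scale of observed over expected frequency, the upstream mean was -0.93 and -0.13 in keratinocytes and 0.06 and 0.08 in thymocytes. On this scale the thymocyte means upstream were thus near 0, and the keratinocyte means below 0, by much more in library 1 than in library 2. A mean of logs can fall below 0 where the mean Z score does not, as in keratinocyte library 2, with a mean Z score of 0.143. No mean over the whole locus is given on this scale. Downstream the means were 0.08 and 0.20 in keratinocytes and 0.07 and 0.09 in thymocytes, and the libraries overlapped. The corrected frequency itself, with no correction for distance, was 6.52 and 6.54 on the log2 scale upstream in keratinocytes and 6.53 and 6.35 in thymocytes, so that the upstream difference in means was 0.09 and of opposite sign. Downstream it was 7.07 and 6.38 against 6.11 and 5.89. The authors corrected each library on its own and the libraries were not scaled to a common total, so a difference in frequency between libraries also holds any difference in their overall level.

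Contacts that pass over Lor describe how often the chromatin on its upstream side met that on its downstream side. All contacts listed in the 4 libraries were taken that join a fragment up to 500 kb upstream of a position with a fragment up to 500 kb downstream of it, in steps of 15 kb around the middle of Lor, a description chosen after the data had been seen. At Lor, 331 such contacts had a mean Z score of -0.264 and -0.0136 in keratinocytes and 0.298 and 0.331 in thymocytes. The keratinocyte libraries reached their lowest values 60 kb and 45 kb upstream of Lor, at -0.402 and -0.0787. The study's average keratinocyte border lies 9.37 kb downstream of the middle of Lor. These lowest values lie upstream of it, at distances within the study's stated accuracy for a border, so no mismatch is shown. The thymocyte libraries did not fall below 0 at any of 41 positions up to 300 kb on either side, and their lowest values, 0.120 and 0.0749, lay 45 kb and 240 kb upstream. From 105 kb upstream to 60 kb downstream of Lor both keratinocyte libraries were below both thymocyte libraries, and from 105 kb to 300 kb downstream both were above. Lor thus lay within a dip of spanning contacts in keratinocytes, towards its downstream edge. Thymocyte library 1 also had its lowest value near Lor, and thymocyte library 2 did not. The study's average thymocyte border lies 197 kb downstream of the middle of Lor. At 195 kb downstream the thymocyte means were 0.341 and 0.485, and neither library had its lowest value there.

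**Figure D3:**
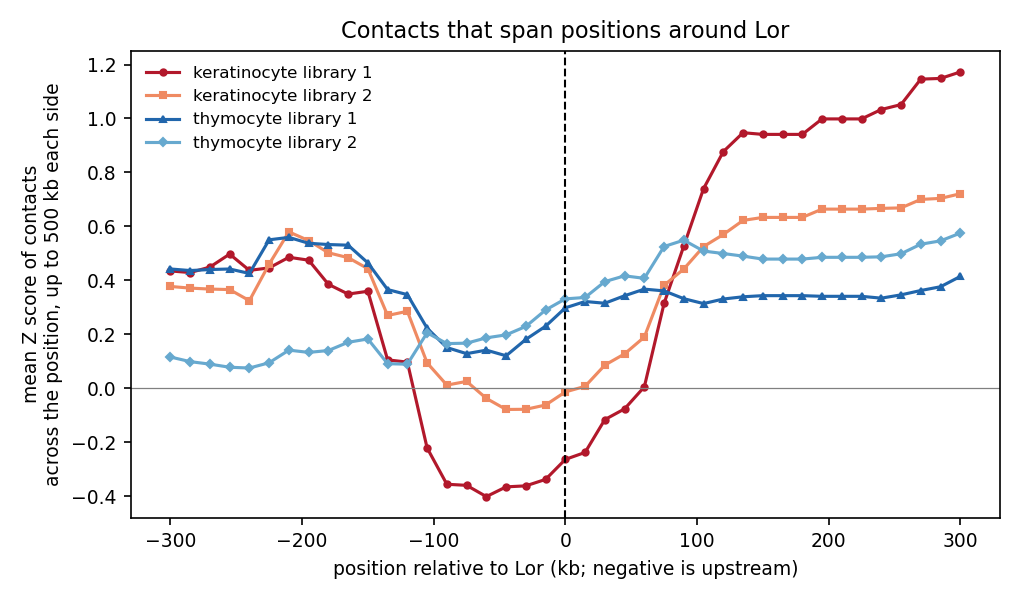
Mean Z score of contacts that span each position, reaching up to 500 kb to either side, against the position relative to the middle of Lor in kb. Each line is a library, and the dashed line marks Lor. Both keratinocyte libraries are lowest just upstream of Lor, at -0.402 and -0.0787, while both thymocyte libraries stay above 0.

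The TADs of the partners were compared next, with the study's average keratinocyte borders for both cell types. Partners in TAD2 gave a mean Z score of -0.349 and -0.0806 in keratinocytes and 0.332 and 0.0658 in thymocytes (108 contacts). Partners in TAD3 gave 0.976 and 0.629 in keratinocytes and 0.318 and 0.445 in thymocytes (238 contacts). The TAD3 mean minus the TAD2 mean was 1.02 ± 0.435 (SD, n = 2) in keratinocytes. It was 0.182 ± 0.278 (SD, n = 2) for thymocytes, and all 4 libraries kept their order by cell type (exact permutation p = 0.333, the smallest possible). With the study's thymocyte borders the difference between cell types was 0.99 in place of 0.83. Partners in TAD4, beyond the next border, were also higher in both keratinocyte libraries, with 1.40 and 1.04 against 0.709 and 0.763 (292 contacts). Partners in TAD6, further downstream, were lower in both, with 0.367 and 0.416 against 0.485 and 0.935 (94 contacts), and the libraries overlapped for TAD5 and TAD7. By the median over contacts the TAD3 minus TAD2 difference was 0.38. Partners in TAD1 were the most unequal in the other direction, with -0.231 and 0.444 in keratinocytes and 1.09 and 1.77 in thymocytes. The 31 contacts with partners between the region and the thymocyte border were lower in keratinocytes, at -0.928 and -0.282 against -0.0234 and 0.304. Yet by the study's average border these partners belong to TAD3 in keratinocytes.

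Fragments of the region were not alike, and the fragment that holds Lor had the widest gap between the cell types in the mean side difference. Upstream, the 21 contacts of FOR_683 had a mean Z score of -0.372 and -0.355 in keratinocytes and 1.42 and 1.48 in thymocytes. Counted singly, 6 of these 21 (28.6%) were lower in both keratinocyte libraries, a share like the 28.7% of all upstream contacts of the region. Downstream, its 90 contacts had means of 1.86 and 0.631 in keratinocytes and 0.420 and 0.746 in thymocytes, where keratinocyte library 2 lay between the thymocyte libraries. The side difference of FOR_683 was 2.23 and 0.986 in keratinocytes and -0.999 and -0.736 in thymocytes, a difference of 2.48 between the means (exact permutation p = 0.333, the smallest possible). The fragment next to it, REV_685, was low upstream in both cell types except in thymocyte library 2, and had the highest downstream mean of the fragments with over 20 contacts, 2.81, in keratinocyte library 1, against 1.04 in library 2 and 0.607 and 0.918 in thymocytes.

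FOR_671, at the upstream end of the region, had upstream means of 0.0981 and 1.21 in keratinocytes and higher ones, 2.34 and 1.86, in thymocytes. FOR_686, at the downstream end, had a side difference of 0.108 and 0.716 in keratinocytes and -0.0716 and 0.138 in thymocytes. Across the 10 fragments with contacts on both sides, the side difference was higher in keratinocytes in 10, by 0.174 to 2.48, and the libraries did not overlap between the cell types in 5. The same count was not made for fragments elsewhere in the locus. Downstream contacts alone were lower in the keratinocyte mean for FOR_671 (-0.400), FOR_675 (-0.100), FOR_677 (-0.0959) and FOR_686 (-0.170). They were higher for the rest of the 10 fragments. Leaving out any 1 fragment kept the side difference of the region between 0.95 and 1.21. REV_672 rests on 5 upstream contacts.

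**Figure D4:**
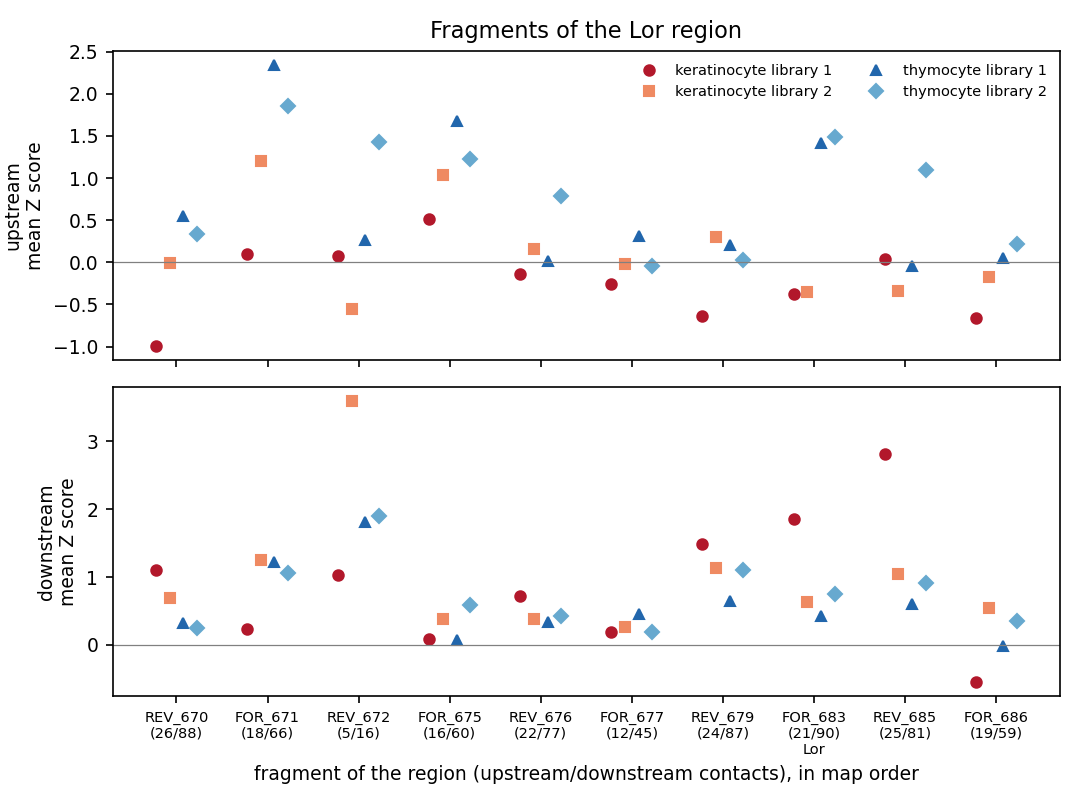
Mean Z score of upstream (top) and downstream (bottom) contacts for the 10 fragments of the region with contacts on both sides, in map order, with a symbol for each library and the numbers of contacts in brackets. FOR_683, which holds Lor, has upstream means of -0.372 and -0.355 in keratinocytes and of 1.42 and 1.48 in thymocytes.

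Among the partner groups, the late cornified envelope (Lce) genes had the highest means over the keratinocyte libraries, 1.83 for Lce1 and 1.42 for Lce3 with Crct1. The Lce proteins are laid down in the envelope late in differentiation. Contacts with the Lce1 cluster, which here includes Lce6a and Kprp, had a mean Z score of 2.32 and 1.34 in keratinocytes and 0.326 and 0.642 in thymocytes (88 contacts, 14 genes). Contacts with the Lce3 cluster and Crct1 had means of 2.03 and 0.797 against 0.381 and 0.513 (28 contacts). In keratinocyte library 2 the order differed. There Pglyrp4, at 1.57 over 5 contacts, lay above Lce1, and several groups, among them the filaggrin-like genes at 1.33, lay above Lce3 with Crct1. All 186 contacts of the region at 500 to 1000 kb downstream had 2.18 and 1.19 in keratinocytes, close to Lce1, and whether Lce1 differs from other partners at that distance was not tested. In 35 of the 88 Lce1 contacts both keratinocyte Z scores exceeded both thymocyte ones, which happened in 21.1% of all contacts listed in the 4 libraries, and the reverse held in 10, against 19.1% of all contacts. The difference for Lce1 was 1.34, and between 0.86 and 1.83 with any 1 library left out.

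The filaggrin-like genes include Flg, whose product bundles keratin filaments, and their libraries were separated by a narrow margin, with 1.38 and 1.33 in keratinocytes and 0.735 and 1.32 in thymocytes (70 contacts). The 3' S100 genes, S100a10 and S100a11, had 1.15 and 0.226 against -0.0447 and -0.0903 (14 contacts). Over every contact a library lists the cell types overlapped for both groups, with differences of 0.22 for the filaggrin-like genes and 0.33 for the 3' S100 genes. Without thymocyte library 1 the filaggrin-like difference fell from 0.33 to 0.03, and without keratinocyte library 1 the 3' S100 difference fell from 0.75 to 0.29. For Ivl, the gene of the envelope scaffold protein involucrin, with its neighbour Smcp, the libraries overlapped, at 1.14 and 0.372 against 0.163 and 0.520 (10 contacts). The difference between the cell types was thus 1.34 for Lce1, 0.97 for Lce3 and Crct1 and 0.42 for Ivl and Smcp, and whether the groups differ from each other was not tested. Without keratinocyte library 1 these became 0.86, 0.35 and 0.03.

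The small proline-rich (Sprr) genes, whose products are cross-linked with loricrin in the envelope, were not higher in keratinocytes. The 12 Sprr2 genes lie a median of 314.5 kb from the Lor fragments, and their 42 contacts had means of -0.538 and -0.156 in keratinocytes and 0.109 and 0.0429 in thymocytes. Of these 42 contacts, 12 were lower and 4 higher in both keratinocyte libraries, against 19.1% and 21.1% of all contacts listed in the 4 libraries. With the contacts of FOR_683 alone the difference for Sprr2 changed from -0.42 to 0.26. Sprr1a, Sprr1b, Sprr3 and Sprr4 together had -0.541 and 0.0934 against 0.368 and -0.0863, and overlapped. Prr9 and Lelp1, the nearest genes downstream, were lower in both keratinocyte libraries, at -0.931 and -0.234 against -0.198 and 0.464 (7 contacts). Pglyrp3, a peptidoglycan recognition protein gene and the nearest gene upstream, was likewise lower, at -0.895 and -0.342 against -0.133 and -0.0634 (12 contacts).

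Some distant groups had higher means in both thymocyte libraries, each over few contacts. Pglyrp4, near the 5' S100 genes, had -0.0712 and 1.57 in keratinocytes and 2.59 and 3.02 in thymocytes, over 5 contacts. None of the 5 was lower in both keratinocyte libraries and 1 was higher, against 19.1% and 21.1% of all contacts. The cell types overlapped by the median and on the log2 scale of observed over expected frequency. The 11 S100 genes of the upstream side, which encode calcium-binding proteins, spread widely within each cell type, with -0.0398 and 0.949 against 0.101 and 2.32, and without thymocyte library 2 the difference changed from -0.75 to 0.35. The Tdpoz genes had 0.702 and 0.400 against 1.51 and 4.86, and Them4 and Them5, acyl-CoA thioesterase genes, 0.851 and 1.10 against 1.38 and 9.46, each over 6 contacts. Thymocyte library 2 set most of the last 2 differences, which fell from -2.63 to -0.96 and from -4.44 to -0.40 without it. By the median over contacts the cell types overlapped for both.

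Enhancers here are the study's putative keratinocyte enhancers, numbered E1 to E16, taken with fragments within 10 kb. Of those with 3 or more contacts, E11 was higher in both keratinocyte libraries, at 2.01 and 0.467 against -0.0354 and 0.0431 (9 contacts). Over every contact a library lists the cell types overlapped for E11, with a difference of 0.39, and without keratinocyte library 1 its difference fell from 1.23 to 0.46. E10 was lower, at 0.112 and 0.613 against 1.03 and 0.690 (12 contacts), though by the median the cell types overlapped. Of its 12 contacts, 4 were higher and 3 lower in both keratinocyte libraries, against 21.1% and 19.1% of all contacts. E9, with the most contacts at 31, overlapped, at 1.67 and 0.676 against 0.745 and 0.630. Of all 13 gene groups tested, 4 had both keratinocyte libraries above both thymocyte libraries, 6 had them below and 3 overlapped. Of the 8 enhancer groups tested, 1 was above, 2 were below and 5 overlapped. The 21 groups formed 1 family, in which the lowest adjusted p of the exact permutation tests was 0.538.

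**Figure D5:**
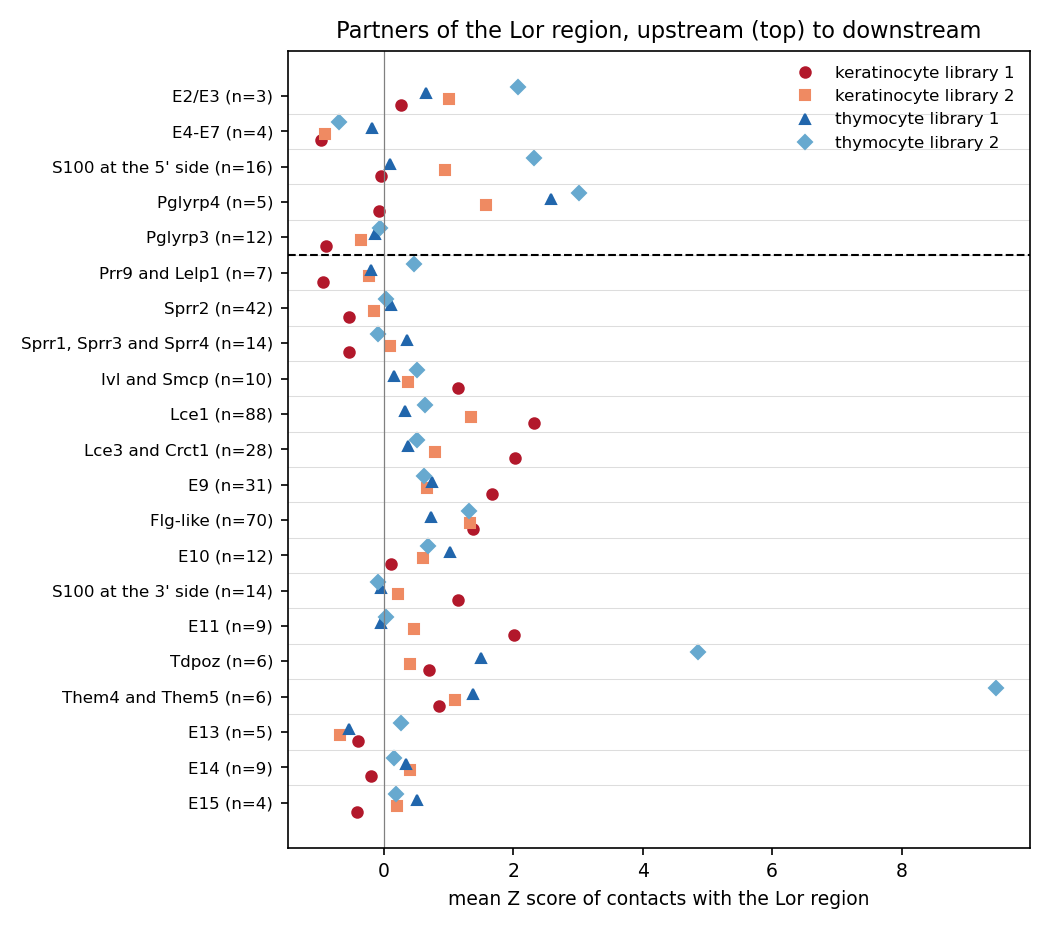
Mean Z score of contacts between the Lor region and fragments at each gene group or putative enhancer, from the farthest upstream (top) to the farthest downstream, with a symbol for each library and n contacts. The dashed line is the place of the region. Lce1 partners lie at 2.32 and 1.34 in keratinocytes and at 0.326 and 0.642 in thymocytes.

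A contact was called where its q-value lay below 0.05 in each library of the cell type. In keratinocytes 47 of the region's 1960 contacts listed in both libraries were called, or 2.40%, against 1.99% of the 57186 contacts of the whole locus. They were 45 of 1384 downstream contacts and 2 of 563 upstream contacts. In thymocytes 43 of 1180 were called, or 3.64%, against 4.03% of 31105, and these were 28 of 874 downstream and 15 of 287 upstream. The called share of the region was thus close to that of the locus in each cell type, and the sides differed. By TAD, the keratinocyte calls were 18 of 371 contacts with TAD3, 19 of 551 with TAD4 and 0 of 231 with TAD2, which allows a share of up to 1.30%. The thymocyte calls were 12 of 150 contacts with TAD1, 17 of 349 with TAD4 and 6 of 305 with TAD3. FOR_683 had 9 of its 163 downstream contacts called in keratinocytes and 0 of 69 upstream (up to 4.35%), and 2 of 101 downstream and 4 of 30 upstream in thymocytes. These limits cover counting error only.

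Restricted to the 868 contacts present in every library, the calls were 25 in keratinocytes and 29 in thymocytes, and 6 were shared, which is 24.0% of the keratinocyte calls and 20.7% of the thymocyte calls. These shares were not computed over all 23395 contacts, so they are not shown to be particular to the region. Across the locus the study likewise found that a minority of interactions were common to both cell types. Of the 19 called in keratinocytes alone, 18 were downstream, and of the 23 called in thymocytes alone, 9 were upstream. The contact of FOR_683 with a fragment 0.974 kb from Ivl, at chr3:92378027-92379194 and 485 kb away, was among the 6, and its Z scores were alike in all libraries, at 3.80 and 3.46 in keratinocytes and 3.17 and 4.23 in thymocytes. Its corrected frequency was 759 and 355 in keratinocytes and 257 and 267 in thymocytes, where 263, 148, 115 and 96.7 were expected at that distance. The other 5 had partners near Lce1l, Crct1 and Snx27 and, for REV_672, a pair of fragments in or near Flg2.

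Of the 5 called keratinocyte contacts with the highest Z scores in the lower of the pair of libraries, 2 were with fragments within 5 kb of genes of the Lce1 group, Kprp and Lce1a2. REV_685 met a fragment 0.684 kb from Kprp, a keratinocyte proline-rich protein gene, 730 kb away, with Z scores of 12.4 and 5.70 in keratinocytes and -1.56 and 1.26 in thymocytes. The corrected frequency of this contact was 1115 and 299 in keratinocytes, where 138 and 82.7 were expected, and 30.0 and 83.6 in thymocytes, where 67.7 and 56.6 were expected. It was also the contact with the largest keratinocyte excess of the region. FOR_683 met a fragment 0.718 kb from Lce1a2, 581 kb away, with Z scores of 11.6 and 5.39 in keratinocytes and 3.50 in thymocyte library 1, and thymocyte library 2 does not list it. REV_685 also met fragments near Lce1l (6.60 and 5.48) and in Snx27, a sorting nexin gene outside the EDC (7.50 and 5.43), and both were called in thymocytes too. The first by rank joined REV_674 to a fragment near Gm9116 at 1832 kb, with 6.84 and 6.62, and neither thymocyte library lists it.

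Of the 5 highest called contacts in thymocytes, 3 were upstream. REV_679 met a fragment in S100a16, 1520 kb upstream, with Z scores of 16.8 and 10.98, and keratinocyte library 2 had 7.15 there. FOR_683 met a fragment in Nup210l, 1924 kb upstream, with 10.3 and 16.7 in thymocytes and 0.691 in keratinocyte library 2. REV_679 also met a fragment in Rab13, a small GTPase gene, with 11.2 and 9.25 against -1.36 in keratinocyte library 2. Keratinocyte library 1 lists none of these 3 contacts. The other 2 were downstream, REV_672 with Flg2 (9.30 and 11.8) and FOR_671 with a fragment 21.7 kb from Crnn, the cornulin gene (9.04 and 13.1).

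The remaining contacts with the largest keratinocyte excess, among those whose libraries did not overlap, were with fragments near Lce1d (14.5 and 2.91 against 0.854 and -0.690), Lce1e (11.3 and 4.19 against -0.0172 and -0.654) and 2310050C09Rik (11.9 and 2.95 against 0.632 and -0.828), and of FOR_671 with Gm17426 (2.36 and 16.3 against 1.31 and -0.534). In 4 of the 5 largest, keratinocyte library 1 was the higher of the pair. The largest thymocyte excess was between REV_679 and a fragment 24.9 kb from S100a10, with 8.79 and 20.0 in thymocytes and 1.59 and 2.13 in keratinocytes. FOR_683 with Gatad2b, a gene of a chromatin remodelling subunit 1723 kb upstream, had 4.85 and 14.2 in thymocytes and -1.63 and -1.19 in keratinocytes. Tdpoz2 (8.65 and 6.95 against -0.238 and 0.105) and 4930529C04Rik (10.6 and 6.26 against 0.829 and 1.24) made up the 5 with Crnn.

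Counted over single contacts, both keratinocyte Z scores were below both thymocyte ones in 54 of 188 upstream contacts (28.7%, against 19.1% of all contacts) and above them in 21 (11.2%, against 21.1%). Downstream they were above in 173 of 670 (25.8%) and below in 124 (18.5%). For FOR_683 the downstream counts were 34 above and 14 below among 90. Its upstream counts were 2 above and 6 below among 21. A limma fit over all 23395 contacts called 0 of them at an adjusted p under 0.05, so that the called share was 0%, and the smallest adjusted p of the region's contacts was 0.767. At an unadjusted limma p under 0.05 there were 20 contacts of the region higher in keratinocytes and 14 lower, of 868, where the shares over all contacts were 2.97% and 2.14%. Libraries were simulated with normal noise at the spread that limma estimates for each contact, and 200 contacts were shifted in keratinocytes. The fit recovered 0 of 200 at a shift of 16 in Z score, with 2 false calls. At a shift of 32 it recovered 199 of 200, with 20 false calls. In that setting single contacts could not be told apart by it at the differences seen here.

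The pattern was not particular to the 60 kb around Lor. The 60 kb just upstream, which holds Pglyrp3, had a side difference of 1.16 and 0.275 in keratinocytes and -0.0220 and -0.196 in thymocytes. The 60 kb just downstream, with Prr9 and Lelp1, had 1.27 and 0.648 against 0.0536 and 0.316. The side difference between the cell types was larger at Lor than at the upstream neighbour by 0.31 and than at the downstream neighbour by 0.36, with libraries that did not overlap (exact permutation p = 0.333 each, 0.5 after adjustment over 6 comparisons). By the median over contacts the excess over the downstream neighbour was 0.09, and the libraries overlapped. For upstream contacts the difference between the cell types was -0.80 at Lor and -0.79 at its upstream neighbour. Among 50 windows of 60 kb with enough contacts, in steps of 15 kb up to 540 kb to either side, 34 had a side difference that was higher in both keratinocyte libraries and 7 a lower one. The window at Lor ranked 4, and the highest, 1.42, lay 30 kb further downstream. Windows overlap each other and share partners.

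Among 143 genes of the locus with enough contacts in their own 60 kb window, the 3 whose upstream and downstream means in the 4 libraries were most like those of Lor were Lelp1, Sprr2d and Sprr2f, with root mean square differences of 0.170, 0.203 and 0.210 in Z score over the 8 values. Lelp1 lies next to the region, and its side differences were 1.25 and 0.551 in keratinocytes and -0.0168 and 0.261 in thymocytes. Those of Sprr2d and Sprr2f in keratinocyte library 2, 0.104 and 0.108, were below that of Lor, 0.658.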

How the data were processed

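5C libraries of 2 keratinocyte and 2 thymocyte samples were analysed. Per the labels and the study's methods, reads were mapped with Bowtie to the probe pairs (mm9). For each contact and library the authors deposited a corrected contact frequency (a signal), the signal expected at that distance and its standard deviation, a Z score, and a p-value with a q-value from a Weibull fit. Each Z score equalled the frequency minus the expected value over the standard deviation, to within 1.24e-13. Each library was corrected alone, and the files hold no read counts.

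Mean Z scores were compared between cell types over contacts listed in all 4 libraries, with two-sided exact permutation tests (SciPy 1.17.1) and Benjamini-Hochberg adjustment within each family. Single contacts were fitted with limma 3.58.1 (R 4.3.3) over all 23395 contacts, which was tested on simulated data. Genes came from gencode vM1 (mm9), extended by 5 kb, and putative enhancers by 10 kb. TAD borders, enhancers and probe sequences came from the study's supplementary files. Named contacts were the 5 with the highest Z score in the lower library of each cell type and the 5 with the largest difference in each direction among contacts whose libraries did not overlap. The 6 called in both cell types were added after their values were seen. The members, gene groups and tests were chosen with earlier results of these data known. The alternatives tried are given in the closing section.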

Additional observations from a re-analysis of the deposited data

How the results depend on the processing

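Of 312 alternative values, 16 changed sign, 8 counts moved by more than 1.5 times, and the remaining 288 were differences that kept their sign, whatever their size, or counts within 1.5 times. The exact permutation test cannot pass a threshold of 0.05 with 2 libraries against 2, so its p says nothing of stability. The cause of the changes was not tested. The upstream difference became 0.0869 with the log2 corrected frequency. By the median over contacts the upstream difference was -0.34, the side difference 0.64 and the TAD3 minus TAD2 difference 0.38, and with distance bands weighted equally the side difference was 0.44. Over every contact a library lists the downstream difference was 0.0542. Under 500 kb the downstream difference became -0.42 and the side difference -0.19. With each library left out in turn the upstream difference ran from -1.02 to -0.58, the downstream difference from 0.21 to 0.45, the side difference from 0.79 to 1.47 and the TAD3 minus TAD2 difference from 0.53 to 1.14.

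Called contacts in keratinocytes numbered 25 among contacts listed in all 4 libraries, 9 for the fragment of Lor and 280 to 291 in 1 library alone, in place of 47. In thymocytes they numbered 6 for the fragment of Lor and 178 to 287 in 1 library alone, in place of 43. Over every contact a library lists, the groups with keratinocytes higher fell from 5 to 3, since the filaggrin-like genes, the 3' S100 genes and E11 overlapped there and Ivl with Smcp no longer did, and numbered 6 to 7 with a library left out. With every listed contact the difference became 0.0535 for Sprr1, Sprr3 and Sprr4 and 0.27 for E15. With the fragment of Lor alone it became 0.26 for Sprr2 and -0.41 for E9. With a library left out, differences ran from 0.86 to 1.83 for Lce1, from 0.35 to 1.59 for Lce3 and Crct1, from 0.0304 to 0.80 for Ivl and Smcp, from -0.61 to -0.23 for Sprr2, from -0.80 to -0.24 for Pglyrp3, from -1.06 to -0.37 for Prr9 and Lelp1, from -2.88 to -1.23 for Pglyrp4, from 0.46 to 2.01 for E11, from -0.75 to -0.25 for E10, from -0.0115 to 0.98 for E9, from -0.44 to 0.16 for E14, from -1.86 to 0.35 for the S100 genes at the 5' side and from -0.80 to 1.1e-05 for E13. The region minus its upstream neighbour ran from -0.15 to 0.13 for upstream contacts, and minus its downstream neighbour from -0.0938 to 0.0106 for downstream contacts, which the median over contacts put at 0.0125.

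With the replicate number as a block the upstream, downstream and side differences were the same, -0.80, 0.33 and 1.13, with an exact sign-flip p of 0.5, the smallest possible. Deviations of same-numbered libraries correlated at -0.0937, and the numbers do not pair the samples. The limma fit called 0 contacts with the block, and 1238 at an unadjusted p under 0.05 in place of 1195.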
